A study of Drosophila melanogaster with 18 samples.

Results

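Transcripts of 10 DNA replication genes were followed in developing wings of Drosophila melanogaster. The genes were listed by their function: the 6 subunits of the MCM helicase (Mcm2, Mcm3, dpa, Mcm5, Mcm6 and Mcm7, where dpa is the fly Mcm4 gene), the replication clamp PCNA, both subunits of ribonucleotide reductase (RnrL and RnrS) and the S phase cyclin CycE. All 10 were found among the 13731 genes with values, and all 10 passed the filter on low counts that left 9672 genes for testing. No member passed through 1 group alone, since each had counts in all 18 libraries.

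DNA replication starts when origins are licensed by loading of the MCM ring, which later opens the double helix ahead of the fork. PCNA encircles DNA and holds the polymerases on it, ribonucleotide reductase makes the deoxynucleotides, and Cyclin E with its kinase Cdk2 drives cells from G1 into S phase. Most of these genes are known targets of the E2F factors, and in the pupal wing the cells pass through their last divisions and then leave the cell cycle.

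RNA was sequenced from dissected pupal wings at 24 h and 44 h after puparium formation (APF), at least 40 wings pooled per sample. Control flies carried the driver rn-Gal4 alone, the second genotype was rn-Gal4; UAS-E93RNAi, and the remaining genotype was rn-Gal4; UAS-brRNAi; UAS-E93RNAi, so the driver was shared by all groups. Each genotype and time had 3 libraries, which gave 6 groups and 18 libraries. Eip93F encodes E93, a transcription factor induced by ecdysone that promotes adult differentiation, while the products of broad (br) are zinc finger proteins active in pupal development. The driver follows the rotund (rn) gene, so cells of the dissected wings outside its expression carry no RNAi, and br RNAi without E93 RNAi was not analysed here. The labels do not state whether the libraries within a group derive from independent crosses, and the p-values therefore reflect no more than the variation among these libraries, possibly technical.

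Library totals ran from 17627937 to 22940404 counts, and levels are given as TMM-scaled CPM, in which 1 count was worth 0.0412 to 0.0617. In the 24 h libraries with the label E93RNAi, the RNAi target Eip93F showed no fall against control, at 2066 ± 193 CPM against 2077 ± 51.7 CPM (SD, n = 3; log2 fold change -0.01, 95% interval -0.13 to 0.12), so the genotype is called by its label throughout. In the 24 h E93RNAi+brRNAi libraries it was at 2369 ± 40.8 CPM (0.19 ± 0.06, adjusted p = 0.0214). At 44 h it was at 1156 ± 37.7 CPM in E93RNAi (-0.15 ± 0.06, adjusted p = 0.0522) and at 867 ± 55.9 CPM in E93RNAi+brRNAi (-0.57 ± 0.06, adjusted p = 1.53e-07), against 1285 ± 48 CPM in control. In the 24 h E93RNAi libraries br was at 95.1 ± 10.9 CPM against 14.8 ± 1.96 CPM, and with br RNAi added it was at 18 ± 4.09 CPM. Dcr-2, a Dicer gene of the RNAi machinery, was at 5549 ± 425 CPM in the 24 h E93RNAi libraries, 237 ± 22.1 CPM in control and 141 ± 10.7 CPM in E93RNAi+brRNAi. The E93RNAi libraries thus differed from both other genotypes in Dcr-2 as well. Dcr-2 was also called lower in E93RNAi+brRNAi than in control at 24 h. At 44 h br, rn and Dcr-2 were all called higher in E93RNAi than in control. Of the 4 check genes (these and Eip93F), 2 were called higher in E93RNAi+brRNAi than in control at 44 h. Eip93F was called lower there and 1 did not pass. Dcr-2 was again called lower in E93RNAi+brRNAi than in E93RNAi at 44 h. Comparisons with E93RNAi therefore cannot tell the labelled RNAi apart from the Dcr-2 level. The same holds for E93RNAi+brRNAi against control at 24 h. Within groups, E93RNAi 24 h replicate 3 and E93RNAi+brRNAi 44 h replicate 3 lay farther from their companions than the other libraries did, with a chi-square per gene of 17.6 to 25.5 for the pairs with them against 2.77 to 10.3 for all other pairs.

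In control wings all 10 genes were lower at 44 h than at 24 h, and the falls ranged from about 2-fold for dpa and CycE to about 100-fold for PCNA. Of the 9672 genes tested, 75.3% differed between the times, 38.1% lower at 44 h and 37.1% higher, with a median log2 fold change of -0.01, while the median of the 10 genes was -4.46 (range -6.65 to -1.01). The called genes divided into 49.3% higher and 50.7% lower, and with library totals in place of TMM scaling into 37.4% and 62.6%. In pooled tissue, fewer cells in S phase and less RNA per cell cannot be told apart.

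The MCM genes did not fall alike. Mcm5 (FBgn0017577, chromosome 3R, 10788524 to 10791150, plus strand) had 79.1, 81.7 and 81.5 CPM in the control libraries at 24 h, compared with 1.04, 0.996 and 0.609 CPM at 44 h, the latter from 11 to 20 counts per library. All 24 h libraries lay far above all 44 h libraries, and the log2 fold change was -6.5 ± 0.13 (SE, adjusted p = 1.46e-20). Mcm7 (FBgn0020633, chromosome 3L, 8891596 to 8894310, plus strand) went from 115, 114 and 119 CPM to 2.42, 2.44 and 3.21 CPM, a log2 fold change of -5.44 ± 0.1 (adjusted p = 3.83e-21). Both subunits were thus below 4 CPM in control wings at 44 h. An antisense RNA gene on the opposite strand overlaps 2205 bases of Mcm7, and it had no counts in the tables.

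Mcm2 (FBgn0014861, chromosome 3R, 8264970 to 8267924, plus strand) fell from 87.6 ± 2.02 to 4.08 ± 0.223 CPM (SD, n = 3), a log2 fold change of -4.42 ± 0.11 (SE). Mcm3 (chromosome X, 5323855 to 5326738, plus strand) fell from 103 ± 2.27 to 6.75 ± 0.928 CPM, a log2 fold change of -3.92 ± 0.1. Mcm6 (FBgn0025815, chromosome X, 6674387 to 6677176, plus strand) fell from 103 ± 0.82 to 11 ± 1.29 CPM, a log2 fold change of -3.23 ± 0.08. These 3 subunits kept more of their 24 h level than Mcm5 and Mcm7 did. Mcm3 is listed under the former identifier FBgn0024332, which was matched by transcript length, and its 3' end overlaps 64 bases of CG3309 on the opposite strand.

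The remaining subunit gene, dpa (FBgn0015929, chromosome 2R, 7496702 to 7500145, minus strand), stood apart from the other MCM genes. Its control libraries had between 103 and 107 CPM at 24 h and still 49.5, 53.2 and 53.4 CPM at 44 h. The groups did not overlap, but the fall was only 2.02-fold (log2 fold change -1.01 ± 0.06, adjusted p = 6.91e-13), and its 95% interval of -1.13 to -0.9 lay outside that of every other MCM gene, of which the nearest was Mcm6 at -3.4 to -3.06.

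PCNA (FBgn0005655, chromosome 2R, 20261754 to 20262883, minus strand) dropped from 207, 191 and 197 CPM in control at 24 h to 1.87, 1.99 and 2.05 CPM at 44 h, from 34 to 40 counts per library. This was the largest fall among the members, at -6.65 ± 0.14 on the log2 scale (adjusted p = 3.48e-20). Of the reductase genes, RnrL (FBgn0011703, chromosome 2L, 10325026 to 10327943, minus strand) encodes the large catalytic subunit and fell from 149 ± 3.83 to 5.22 ± 0.531 CPM (log2 fold change -4.83 ± 0.11). RnrS (FBgn0011704, chromosome 2R, 11983145 to 11985393, minus strand) encodes the small subunit that carries the radical and fell from 95 ± 1.56 to 4.21 ± 0.487 CPM (log2 fold change -4.5 ± 0.11). CycE (FBgn0010382, chromosome 2L, 15727581 to 15748150, minus strand) had 47.4, 51.8 and 46.7 CPM at 24 h against 21.3, 22.6 and 21.7 CPM at 44 h. Its fall of 1.15 ± 0.08 on the log2 scale (adjusted p = 6.7e-11) was close to that of dpa and much smaller than those of the enzymes.

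**Figure D1:**
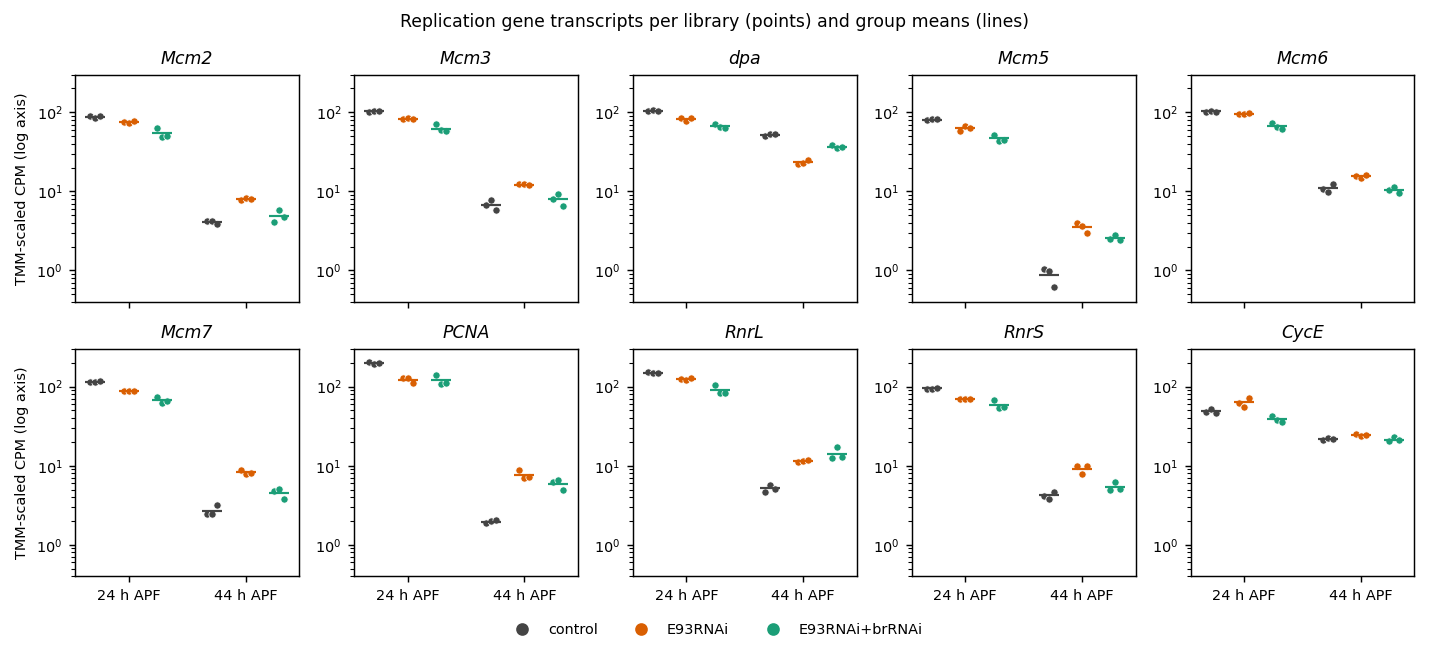
TMM-scaled CPM (log axis) of each gene in every library (points) with group means (lines), by time and genotype. All 10 genes are lower at 44 h in every genotype. At 44 h the E93RNAi libraries lie above all control libraries for 9 of the genes, 8 of which passed the test, and below them for dpa. The share of all genes separated in this way was not counted.

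Levels of different genes were compared per length, as cRPKM, the authors' counts scaled by library total and gene length. At 24 h in control, PCNA was at 208 ± 9.92 cRPKM, RnrS at 65.8 ± 0.884, RnrL at 63 ± 2.14, the 6 MCM genes between 32.9 ± 0.944 (Mcm2) and 51.8 ± 1.13 (Mcm7), and CycE at 14.4 ± 0.764 (SD, n = 3). At 44 h this order had changed in part: dpa was highest with 17.4 ± 0.779 cRPKM and CycE followed with 5.6 ± 0.155, whereas PCNA was at 1.78 ± 0.0902 and Mcm5 lowest at 0.34 ± 0.0872. RnrS stayed above RnrL, and both stayed above Mcm2, Mcm5 and Mcm7. The ratio of PCNA to the mean MCM gene, which no library scaling can change, went from 5.15 ± 0.246 to 0.409 ± 0.00635. At 44 h that mean was mostly dpa, which made up 66.7% of the summed MCM cRPKM.

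At 24 h the E93RNAi libraries had modestly lower levels of most of these genes. Of the 10 genes 8 were lower than in control, 1 was higher (CycE) and 1 did not pass the threshold (Mcm6), where 43.9% of all tested genes passed, 22.3% lower and 21.7% higher. The median log2 fold change of the members was -0.32 against 0 for all genes. PCNA was at 129, 129 and 112 CPM, all below the 191 to 207 CPM of control, and fell by 0.69 ± 0.08 on the log2 scale (adjusted p = 1.49e-06). The other falls were smaller, from -0.45 ± 0.08 for RnrS through -0.41 ± 0.06 for Mcm7, -0.37 ± 0.07 for Mcm5, -0.35 ± 0.05 for dpa and -0.3 ± 0.07 for Mcm3 to -0.25 ± 0.08 for RnrL and -0.22 ± 0.07 for Mcm2.

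These last values are near the limit of the design. The Mcm2 call (adjusted p = 0.0238) was lost without control 24 h replicate 1 or 3 or E93RNAi 24 h replicate 1 or 2, each time at a log2 fold change of -0.2, and the RnrL call (adjusted p = 0.0138) was lost without control 24 h replicate 1, at -0.23. Mcm6 was at 96.1 ± 0.64 CPM against 103 ± 0.82 CPM, with a log2 fold change of -0.1 (95% interval -0.23 to 0.04, adjusted p = 0.244).

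CycE went the other way from the replication enzymes at 24 h. It was at 62.6, 56.1 and 71.5 CPM in E93RNAi against 47.4, 51.8 and 46.7 CPM in control. All E93RNAi libraries were above all control libraries, and the log2 fold change was 0.38 ± 0.08 (adjusted p = 0.000422). CycE overlaps noncoding genes on the opposite strand by 744 and 150 bases, which had no counts in the tables.

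At 44 h the direction was opposite: 8 of the 10 genes were higher in the E93RNAi libraries than in control, 1 was lower (dpa) and CycE did not pass the threshold. Among all tested genes 39.6% passed, 20.6% higher and 18.9% lower. The calls divided into 52.2% higher and 47.8% lower, or 72.3% and 27.7% with library totals only, under which the median of all genes was 0.12. The median of the members was 1.05 against 0.01 for all genes, and was 1.16 with library totals.

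The largest differences were in the genes that had fallen most in control. The difference and the fall both use the control libraries at 44 h, so they are not independent and low values there enlarge both. Mcm5 was at 3.93, 3.6 and 3 CPM in E93RNAi against 1.04, 0.996 and 0.609 CPM in control, a log2 fold change of 1.98 ± 0.21 (adjusted p = 9.59e-08). PCNA was at 8.86, 6.93 and 7.2 CPM against 1.87, 1.99 and 2.05 CPM, 1.95 ± 0.19 higher (adjusted p = 3.99e-08). Mcm7 was at 8.91, 7.82 and 8.12 CPM against 2.42, 2.44 and 3.21 CPM, 1.62 ± 0.13 higher (adjusted p = 1.61e-09). The groups did not overlap for any of these, yet the E93RNAi levels at 44 h were still 16.1-fold (PCNA), 17.8-fold (Mcm5) and 10.6-fold (Mcm7) below those of the same genotype at 24 h.

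RnrL rose by 1.12 ± 0.14, RnrS by 1.12 ± 0.14, Mcm2 by 0.97 ± 0.14, Mcm3 by 0.85 ± 0.12 and Mcm6 by 0.51 ± 0.1 on the log2 scale, so that Mcm6, which had fallen least of these in control, also differed least. CycE was at 24.5 ± 0.571 CPM against 21.9 ± 0.676 CPM, with a log2 fold change of 0.16 (95% interval -0.02 to 0.35, adjusted p = 0.157). The CycE libraries of both groups did not overlap, and 3 of the 8 alternative settings called the difference.

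In contrast to the other subunits, dpa was lower in E93RNAi at 44 h. Its libraries were at 22.3, 22.7 and 24.8 CPM against 49.5, 53.2 and 53.4 CPM in control, without overlap. The log2 fold change was -1.16 ± 0.06 (adjusted p = 4.32e-12), with the same direction and call under all 8 alternative settings and with each library left out.

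Markers of other cell types also differed in these libraries. The summed level of 10 muscle genes was 405 to 517 CPM in E93RNAi at 44 h against 815 to 948 CPM in control, and that of 6 hemocyte genes 65.4 to 67.6 against 92.1 to 102 CPM. All 10 muscle genes and 3 of the 6 hemocyte genes were below every control library, and the others overlapped. Sums of 5 genes of muscle precursors (109 to 120 against 85.4 to 91 CPM), 8 of the sensory organ lineage (291 to 303 against 233 to 244), 3 of trachea (216 to 237 against 180 to 188) and 4 of glia (67.5 to 70.9 against 56.7 to 58.8) were higher, and those of 5 neuronal and 5 fat body genes overlapped. The lists were mixed: of the muscle precursor genes ct alone was above control and 4 overlapped, of the sensory organ genes 6 were above and 1 below, of the tracheal genes 2 above, of the glial genes 3 above and 1 below, and of the neuronal genes 1 above and 1 below. Among the fat body genes Lsp1beta, Fbp1 and Fbp2 were above control and Lsp2 and Obp44a below. No marker of these lists was at 0 in all libraries of a group. At 24 h the sums of muscle (293 to 319 against 195 to 216 CPM), muscle precursors (142 to 183 against 112 to 117) and the sensory organ lineage (334 to 366 against 304 to 315) were higher in E93RNAi, with 8 of 10, 3 of 5 and 4 of 8 genes above control, and the other sums overlapped. Beneath those, 3 of 5 fat body and 3 of 6 hemocyte genes were above control and 1 of each below, 2 of 4 glial genes above, 2 of 3 tracheal genes below, and 1 of 5 neuronal genes above and 2 below. How many of all genes lay above or below every control library was not counted. The part of these cell types in the replication gene results was not tested. The 6 wing blade genes summed to 1910 to 2010 CPM in control, 1967 to 2273 CPM in E93RNAi and 1867 to 2004 CPM in E93RNAi+brRNAi at 24 h, which overlapped. At 44 h their sum was 1427 to 1548 CPM in control, and lower without overlap in E93RNAi (1383 to 1425 CPM) and E93RNAi+brRNAi (1111 to 1298 CPM), although vg and rn were above control in both.

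**Figure D2:**
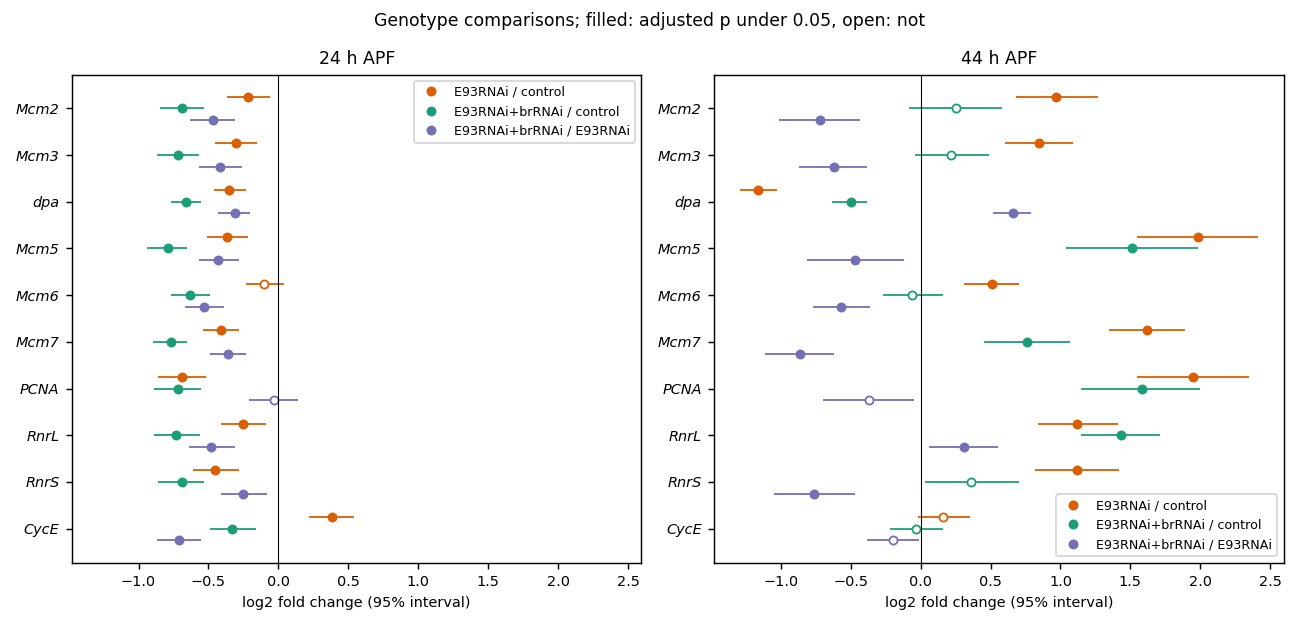
Log2 fold changes (points) with 95% intervals (lines) between genotypes at 24 h (left) and 44 h (right); filled points passed adjusted p 0.05. At 24 h nearly all values lie below 0, while at 44 h the E93RNAi values lie between 0.16 and 1.98 except dpa at -1.16.

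With br RNAi added to E93 RNAi, all 10 genes were lower than in control at 24 h, where 30.5% of all tested genes passed, 15.8% lower and 14.7% higher. The members' median was -0.71 (range -0.79 to -0.33) against 0 for all genes. Dcr-2 was also lower here, so the labelled RNAi and the Dcr-2 level cannot be told apart. The falls were of like size for 9 of them, from -0.79 ± 0.07 for Mcm5 (52.1, 43.6 and 44.2 CPM) and -0.77 ± 0.06 for Mcm7 to -0.63 ± 0.07 for Mcm6, and smaller for CycE (42.5, 38.4 and 35.5 CPM, -0.33 ± 0.08, adjusted p = 0.00285). No member's libraries overlapped with control, but the share of all genes without overlap was not counted. In E93RNAi+brRNAi at 24 h replicate 1 was the highest library for all 10 genes, for example 141 CPM against 108 and 112 CPM for PCNA, and all 10 calls held without it.

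Set against E93RNAi at 24 h, 9 of the 10 genes were lower in E93RNAi+brRNAi. Of all genes 41.2% passed, 21.1% lower and 20.2% higher. These genotypes also differed in Dcr-2, so br RNAi and the Dcr-2 level cannot be told apart here. The median was -0.42 against -0.01 for all genes. CycE differed most (-0.71 ± 0.08, adjusted p = 4.2e-07), and Mcm6, which was not called between E93RNAi and control, was lower by 0.53 ± 0.07 (adjusted p = 3.05e-06). PCNA showed no call, at 120 ± 17.9 CPM against 123 ± 9.69 CPM with overlapping libraries and a log2 fold change of -0.03 (95% interval -0.21 to 0.14, adjusted p = 0.785). The RnrS call (-0.25 ± 0.08, adjusted p = 0.0178) was lost without E93RNAi+brRNAi 24 h replicate 2 or 3, at -0.2.

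At 44 h the E93RNAi+brRNAi group means lay between those of the other genotypes for most genes, although the libraries of Mcm2 and Mcm3 overlapped with control. Against control, 4 genes were higher (PCNA, Mcm5, RnrL and Mcm7), dpa was lower and 5 did not pass. Of all genes 45.6% passed, 23% higher and 22.6% lower, so the number of members called in either direction did not stand apart. The calls divided into 50.5% higher and 49.5% lower, or 38.9% and 61.1% with library totals only. The members' median was 0.31 against -0.01 for all genes. PCNA was at 6.23, 6.53 and 4.96 CPM, all above the 1.87 to 2.05 CPM of control (1.58 ± 0.2, adjusted p = 2.03e-06). Mcm5 was at 2.47, 2.77 and 2.39 CPM (1.51 ± 0.22, adjusted p = 1.24e-05) and Mcm7 at 4.75, 5.08 and 3.84 CPM (0.76 ± 0.15, adjusted p = 0.000237).

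RnrL was the 1 gene highest in this genotype at 44 h. Its libraries were at 12.5, 17.1 and 12.9 CPM, against 11.1, 11.4 and 11.8 CPM in E93RNAi and 4.72, 5.78 and 5.15 CPM in control. The rise over control was 1.43 ± 0.13 (adjusted p = 1.99e-08). The difference from E93RNAi (0.31 ± 0.12, adjusted p = 0.0344) rested on single libraries: without E93RNAi+brRNAi 44 h replicate 2 it was 0.16, and it also lost its call without E93RNAi 44 h replicate 1 or 2.

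The small subunit did not follow. RnrS was at 4.87, 6.29 and 5.01 CPM against 4.17, 3.74 and 4.71 CPM in control (0.36 ± 0.16, adjusted p = 0.0727), and passed only without control 44 h replicate 3 (0.46) and by DESeq2. Mcm2, Mcm3, Mcm6 and CycE overlapped with control at 44 h, with intervals of -0.08 to 0.58, -0.04 to 0.49, -0.27 to 0.16 and -0.22 to 0.16 on the log2 scale. Without E93RNAi+brRNAi 44 h replicate 3, one of the libraries that stood apart, Mcm3 passed at 0.35.

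Compared with E93RNAi at 44 h, E93RNAi+brRNAi had lower levels of 6 genes and higher levels of dpa and RnrL. Of all genes 48.8% passed, 24.9% higher and 23.9% lower. As at 24 h, br RNAi and the Dcr-2 level cannot be told apart in this comparison. The calls divided into 51% higher and 49% lower, or 25.6% and 74.4% with library totals only, under which the median of all genes was -0.2. The lower genes were Mcm7 (-0.86 ± 0.12), RnrS (-0.76 ± 0.14), Mcm2 (-0.72 ± 0.14), Mcm3 (-0.62 ± 0.12), Mcm6 (-0.57 ± 0.1) and Mcm5 (-0.47 ± 0.17). The Mcm5 call (adjusted p = 0.0247) was lost without E93RNAi 44 h replicate 1 or 2 or E93RNAi+brRNAi 44 h replicate 1 or 3, at -0.37 to -0.45. PCNA (-0.37 ± 0.16, adjusted p = 0.052) and CycE (-0.2 ± 0.09, adjusted p = 0.0783) fell just short of the threshold, and PCNA passed it without E93RNAi 44 h replicate 2 or E93RNAi+brRNAi 44 h replicate 2. Among the 8 alternative settings that keep all libraries, 6 called PCNA and 4 called CycE.

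The dpa gene again moved against the rest of the helicase. Its E93RNAi+brRNAi libraries at 44 h were at 38.3, 35.7 and 36.1 CPM, above the 22.3 to 24.8 CPM of E93RNAi (0.66 ± 0.06, adjusted p = 4e-08) and below the 49.5 to 53.4 CPM of control (-0.5 ± 0.06, adjusted p = 6.66e-07). The 3 genotypes did not overlap.

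In E93RNAi+brRNAi at 44 h the summed markers of muscle precursors (61.7 to 78.6 CPM), hemocytes (73.9 to 78.5) and neurons (86.6 to 113) were below control, that of trachea was above it (265 to 331 CPM), and those of muscle, sensory organ lineage, fat body and glia overlapped. Below every control library were 3 of 5 muscle precursor, 4 of 6 hemocyte and 3 of 5 neuronal genes, and 2 of 3 tracheal genes were above. Beneath the overlapping sums, 4 muscle, 2 sensory organ, 3 fat body and 2 glial genes were above control and 1, 2, 1 and 1 below. At 24 h the sums of muscle (157 to 184 CPM), sensory organ lineage (286 to 290), neurons (60.9 to 71.9) and fat body (388 to 418) were below control, those of hemocytes (46.1 to 52.8) and glia (38.8 to 41.1) above it, and those of muscle precursors and trachea overlapped. The fat body genes went opposite ways here too, with Lsp1beta, Fbp1 and Fbp2 above control and Lsp2 and Obp44a below. Of the other lists, 2 muscle genes were above and 2 below, 2 sensory organ genes above and 1 below, 3 neuronal genes below, 3 hemocyte genes, 1 glial gene and 2 muscle precursor genes above, and 2 tracheal genes below. The share of all genes outside the control range was not counted here either. The part of these cell types in the results was not tested.

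The order of the 6 groups was shared by Mcm2, Mcm3, Mcm5, Mcm7, PCNA and RnrS: control, E93RNAi and E93RNAi+brRNAi at 24 h, then E93RNAi, E93RNAi+brRNAi and control at 44 h. Mcm6 differed from it by the order of the last groups, which overlapped, RnrL by having E93RNAi+brRNAi first at 44 h, and dpa by the reversed order at 44 h. CycE differed by having E93RNAi first at 24 h and, like Mcm6, by the order of the last groups, which overlapped. Between neighbours in these orders, libraries overlapped for PCNA (E93RNAi and E93RNAi+brRNAi at 24 h) and for Mcm2, Mcm3, Mcm6 and CycE (control and E93RNAi+brRNAi at 44 h).

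All 10 genes also fell from 24 h to 44 h within each RNAi genotype. In E93RNAi, where 74.5% of all tested genes passed, 36.4% lower and 38.1% higher at 44 h, the members' median was -3.08 (range -4.15 to -1.37), against 0.02 for all genes. In E93RNAi+brRNAi, where 75.8% passed, 38% lower and 37.8% higher, it was -3.21 (range -4.35 to -0.86), against 0 for all genes. In that genotype the calls divided into 49.9% higher and 50.1% lower, or 35.8% and 64.2% with library totals only. CycE fell by 1.37 ± 0.08 in E93RNAi and by 0.86 ± 0.09 in E93RNAi+brRNAi.

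The fall itself was tested between genotypes through interaction terms. It was smaller in E93RNAi than in control for 8 of the 10 genes and larger for dpa, where 37.9% of all genes passed, 19.9% with a higher and 18% with a lower value. The members' median was 1.28 against 0.02 for all genes. The calls divided into 52.4% higher and 47.6% lower, or 67.1% and 32.9% with library totals only. The largest was that of PCNA, which fell 100-fold in control and 16.1-fold in E93RNAi (interaction 2.64 ± 0.21, adjusted p = 3.7e-09). The dpa gene fell 2.02-fold in control and 3.55-fold in E93RNAi (-0.82 ± 0.08, adjusted p = 1.45e-07). CycE did not pass (-0.22 ± 0.12, adjusted p = 0.149), although it did without E93RNAi 24 h replicate 2 (-0.3).

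For E93RNAi+brRNAi against control, 8 genes again fell less and dpa and CycE did not pass, where 38.5% of all genes passed, 20% higher and 18.5% lower. The members' median was 1 against 0.01 for all genes. Mcm5 and PCNA both had an interaction of 2.3, and RnrL one of 2.16 ± 0.16 (adjusted p = 5.69e-10). The dpa interaction was 0.16 (95% interval -0.01 to 0.32, adjusted p = 0.14), and that of CycE was 0.29 ± 0.12 (adjusted p = 0.06), which passed without E93RNAi+brRNAi 24 h replicate 1 (0.37).

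Between E93RNAi+brRNAi and E93RNAi, 3 genes had a higher interaction and 2 a lower one, where 33.5% of all genes passed, 17.5% higher and 16% lower. The calls divided into 52.2% higher and 47.8% lower, into 41.6% and 58.4% with upper quartile scaling and into 27.7% and 72.3% with library totals only. The members' median was -0.12 against -0.03 for all genes. The higher ones were dpa (0.97 ± 0.08, adjusted p = 2.06e-08), RnrL (0.79 ± 0.14, adjusted p = 0.000201) and CycE (0.51 ± 0.12, adjusted p = 0.0021). The lower ones were Mcm7 (-0.5 ± 0.13, adjusted p = 0.00647) and RnrS (-0.51 ± 0.16, adjusted p = 0.0184), of which RnrS lost its call without E93RNAi 44 h replicate 1 or 3 or E93RNAi+brRNAi 44 h replicate 1 or 3 (-0.42 to -0.44).

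**Figure D3:**
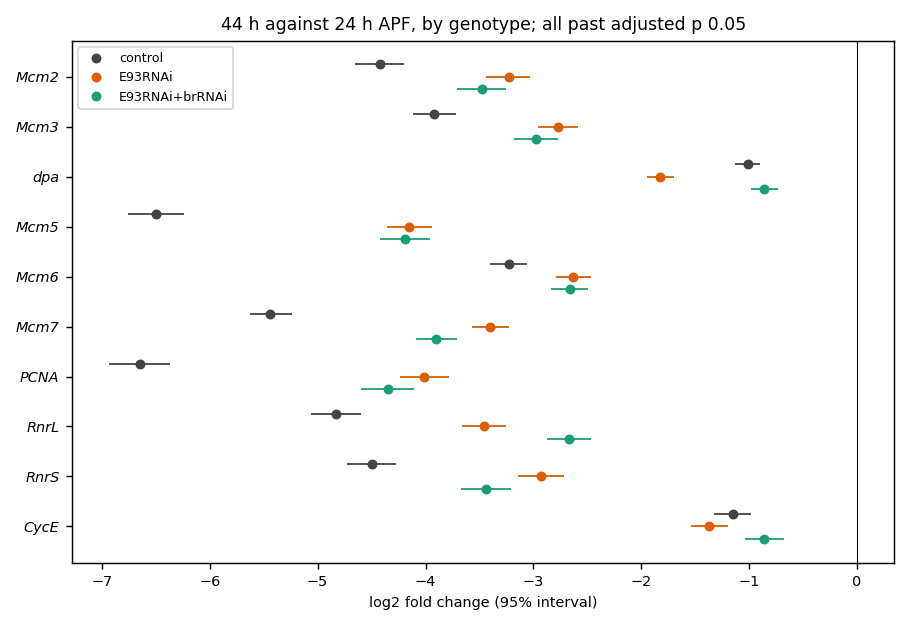
Log2 fold change from 24 h to 44 h (points) with 95% intervals (lines) for each gene in control, E93RNAi and E93RNAi+brRNAi. PCNA and Mcm5 reach -6.65 and -6.5 in control, while dpa and CycE stay between -1.83 and -0.86 in all genotypes.

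Because the MCM proteins act together as a ring with 1 copy of each subunit, the makeup of their transcripts was compared per length within each library, where scaling between libraries cancels. At 24 h the 6 genes were near parity in all genotypes: dpa made up 16.8 ± 0.235% of the summed MCM cRPKM in control, 16.2 ± 0.795% in E93RNAi and 17.5 ± 0.705% in E93RNAi+brRNAi (SD, n = 3). At 44 h its share was 65.8, 67.4 and 66.9% in the control libraries, 30.6, 32 and 33.6% in E93RNAi and 55.4, 50.1 and 56.4% in E93RNAi+brRNAi. The genotypes did not overlap at 44 h.

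The shares of Mcm5 and Mcm7 went the opposite way. Mcm5 fell from 14.8 ± 0.164% at 24 h to 1.31 ± 0.37% at 44 h in control, against 5.56 ± 0.799% in E93RNAi and 4.27 ± 0.199% in E93RNAi+brRNAi. Mcm7 was at 3.95 ± 0.589%, 13.1 ± 0.813% and 7.63 ± 0.666% in the same 44 h groups. The highest over the lowest MCM gene was a ratio of 1.57 ± 0.0351 in control at 24 h and of 54.4 ± 18.2 at 44 h, the latter wide because it divides by the few counts of Mcm5. It was 5.89 ± 1.19 in E93RNAi and 12.7 ± 1.26 in E93RNAi+brRNAi at 44 h.

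**Figure D4:**
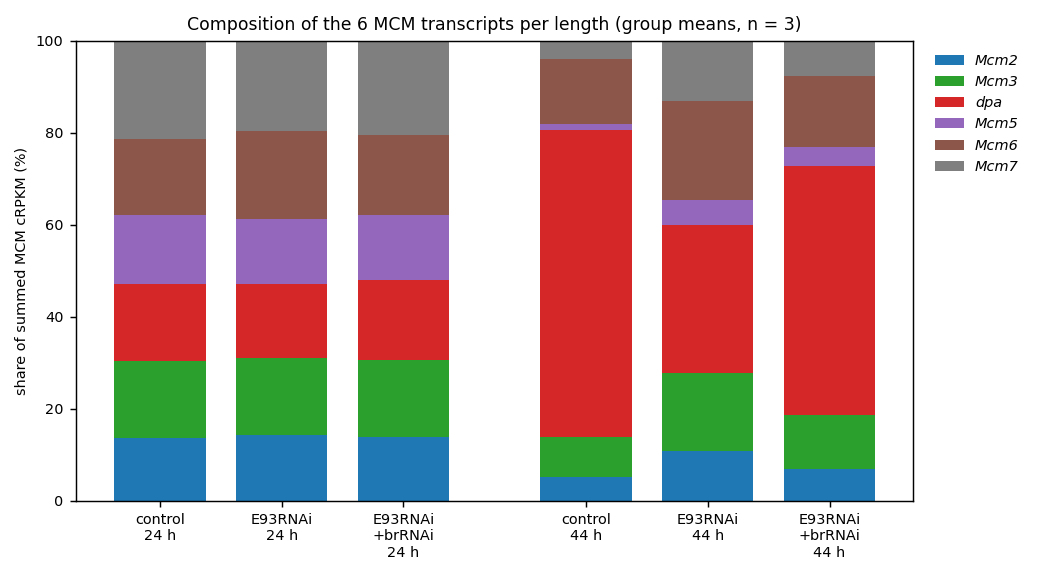
Share of each gene in the summed cRPKM of the 6 MCM genes (stacked bars from 0 to 100%, group means, n = 3). The red dpa segment takes 16.2 to 17.5% at 24 h and 66.7% (control), 32.1% (E93RNAi) and 54% (E93RNAi+brRNAi) at 44 h.

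The sum of the 6 MCM genes hid these shifts. It was 26.2 ± 0.921 cRPKM in control and 26.3 ± 0.386 cRPKM in E93RNAi at 44 h, with 21.8 ± 1.36 cRPKM in E93RNAi+brRNAi, from 242 ± 1.62 cRPKM in control at 24 h. In cRPKM the lower dpa level and the higher levels of the other subunits in E93RNAi were of like size in the sum. This balance depends on scaling by library totals. With TMM-scaled counts per kilobase the control levels at 44 h were higher, for dpa 18.9 against 17.4. Those of E93RNAi were nearly the same, for dpa 8.45 against 8.44.

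Genes next to dpa shared its differences between genotypes at 44 h only in part. The divergent gene didum, a class V myosin gene whose annotated start lies 2 bases from that of dpa, was at 89.5 CPM in control at 24 h (lowest 85.9, highest 94) and at 120 CPM at 44 h, against 127 CPM in E93RNAi and 89.3 CPM in E93RNAi+brRNAi. CG1620, which follows dpa on the same strand after 236 bases, had a mean of 59.9 CPM in control, 56.1 CPM in E93RNAi and 52.5 CPM in the double RNAi genotype at 44 h. At 24 h its means were 129, 109 and 111 CPM in the same order. Like dpa, CG1620 was thus lower at 44 h in control, and lower in both RNAi genotypes than in control at 24 h. At 44 h both neighbours were, like dpa, lower in E93RNAi+brRNAi than in control. The ranges were 75.9 to 97 against 119 to 122 CPM for didum and 51.4 to 54.2 against 57 to 62.2 CPM for CG1620. Neither showed the drop of dpa from control to E93RNAi at 44 h, or its higher level in E93RNAi+brRNAi than in E93RNAi.

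The reductase subunits were near parity per length in most groups. RnrS over RnrL was 1.05 ± 0.0393 in control, 0.91 ± 0.0291 in E93RNAi and 1.07 ± 0.0171 in E93RNAi+brRNAi at 24 h, and 1.33 ± 0.24 and 1.32 ± 0.181 in control and E93RNAi at 44 h. In E93RNAi+brRNAi at 44 h it was 0.64, 0.604 and 0.638, below every library of the other groups, of which the lowest was at 0.882.

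The ratio of PCNA to the mean MCM gene at 44 h was 1.97, 1.58 and 1.58 in E93RNAi and 1.45, 1.48 and 1.25 in E93RNAi+brRNAi, against 0.403, 0.409 and 0.415 in control. The mean MCM gene over CycE was 2.8 ± 0.162 in control, 1.77 ± 0.202 in E93RNAi and 2.14 ± 0.0871 in E93RNAi+brRNAi at 24 h, and fell to 0.646 to 0.778 in the 44 h group means. At 44 h dpa made up 66.7% of the MCM sum in control, 32.1% in E93RNAi and 54% in E93RNAi+brRNAi. Both ratios at 44 h therefore depend strongly on dpa and do not describe the other MCM genes. Ratios without dpa were not computed.

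Another 68 genes of replication and the cell cycle were listed by role, of which 65 had values and were tested. In control 63 of the 65 were lower at 44 h, 1 was higher and 1 did not pass, with a median log2 fold change of -2.3, where 38.1% of all genes were lower. The exception that rose was fzr (1.8 ± 0.06, adjusted p = 4e-16), the Cdh1 activator of the anaphase promoting complex, which keeps cells in G1. Among the origin factors, Orc2 fell by 6.23 ± 0.23, from 19.1 ± 0.929 to 0.252 ± 0.163 CPM, which is a few counts per library. Thymidylate synthase (Ts), which makes dTMP, fell by 6.2 ± 0.21, and the mitotic kinase gene polo by 5.27 ± 0.1. The polymerase alpha gene PolA1 fell by 3.92 ± 0.09, the clamp loader gene RfC4 by 3.16 ± 0.09 and the histone chaperone gene Caf1-55 by 1.71 ± 0.05. G1/S regulators fell less as a group, with a median of -0.86 over 12 genes, although Cdk2, the partner of CycE, fell by 3.04 ± 0.1.

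At 24 h, 36 of the 65 genes were lower in E93RNAi than in control, 3 were higher and 26 did not pass, with a median of -0.24. This was 55.4% of the listed genes lower, against 22.3% of all genes. All 4 nucleotide supply genes were lower, among them dUTPase (-0.69 ± 0.09) and Ts (-0.67 ± 0.11). Of 5 clamp loader genes 4 were lower, such as RfC38 (-0.46 ± 0.07), and of 5 genes for single-strand binding and the lagging strand 4 were lower, such as RPA2 (-0.77 ± 0.09), a subunit of the protein that coats single-stranded DNA. Of 9 helicase partner and firing genes 5 were lower, such as Sld5 of the GINS complex (-0.82 ± 0.15), and of 9 origin genes 5 were lower, such as geminin (-0.42 ± 0.05), the inhibitor of licensing. Polymerase genes were lower in 3 of 8 cases (37.5%) and chromatin assembly genes in 2 of 4.

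The G1/S list was divided at 24 h, with 3 genes higher, 3 lower and 6 not passing. Myc, a growth regulator, was at 72.7, 67.6 and 86.5 CPM in E93RNAi against 23.2, 27.3 and 26.9 CPM in control. These groups were far apart (1.55 ± 0.11, adjusted p = 1.08e-09), and with br RNAi added Myc was at 35.2, 31.2 and 26.6 CPM, overlapping with control. Cdk2 was at 29.8 ± 0.918 against 47 ± 1.06 CPM (-0.66 ± 0.08, adjusted p = 1.54e-06), so that CycE and its kinase partner differed from control in opposite directions. In the G2/M list 6 of 9 genes were lower, such as aurB (-0.67 ± 0.07).

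At 44 h, 31 of the 65 genes were higher in E93RNAi than in control, 3 were lower and 31 did not pass, with a median of 0.26. This was 47.7% of the listed genes higher, against 20.6% of all genes. The licensing factor Cdc6 was at 12.4, 12.2 and 10.3 CPM against 2.25, 3.79 and 3.1 CPM (1.92 ± 0.14, adjusted p = 5.93e-10), without overlap. Mcm10, which helps to activate the loaded helicase, was at 3.13 ± 0.114 against 1.1 ± 0.06 CPM (1.5 ± 0.18). Of 9 origin genes 5 were higher, of 8 polymerase genes 5 (PolA1, 0.95 ± 0.11), of 5 genes for single-strand binding and the lagging strand 4 (RPA2, 1.25 ± 0.17) and of 4 chromatin assembly genes 3 (Caf1-180, 0.56 ± 0.1). Of 9 helicase partner genes 2 passed (Psf3, 0.98 ± 0.15), a share of 22.2% that is near that of all genes, of 5 clamp loader genes 2 (RfC4, 0.4 ± 0.12) and of 9 G2/M genes 5 (polo, 1.24 ± 0.11, and the Cdc25 phosphatase gene stg, 0.58 ± 0.06). In nucleotide supply Ts was higher (1.94 ± 0.37) and the salvage kinase gene dnk lower (-0.61 ± 0.11).

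The other genes lower in E93RNAi at 44 h were fzr (-0.55 ± 0.06) and Rbf2 (-1 ± 0.11, adjusted p = 1.26e-07), a retinoblastoma family gene. Rbf2 was at 5.7, 5.62 and 5.7 CPM in E93RNAi against 11.5, 12.5 and 10.1 CPM in control. In E93RNAi+brRNAi it was at 6.04, 5.83 and 6.12 CPM, close to E93RNAi (0.08 ± 0.12, adjusted p = 0.603), whereas dpa was higher there than in E93RNAi.

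In E93RNAi+brRNAi against control, 51 of the 65 genes were lower at 24 h, 2 were higher and 12 did not pass, with a median of -0.53, where 15.8% of all genes were lower. All 9 origin genes, all 5 clamp loader genes, all 5 genes for single-strand binding and the lagging strand and all 4 chromatin assembly genes were among the lower ones, for example RecQ4 (-0.83 ± 0.11), Prim2 of the primase (-0.8 ± 0.12) and DNAlig1, the lagging strand ligase (-0.71 ± 0.08). The higher ones were fzr (0.61 ± 0.06) and stg, which was at 886 ± 12.9 against 720 ± 8.09 CPM (0.3 ± 0.05) and is named here because it was 1 of 2. At 44 h 13 were higher, 10 lower and 42 did not pass, with a median of -0.01. These shares, 20% higher and 15.4% lower, were no larger than those of all genes, 23% and 22.6%, so the lists did not stand apart in this comparison. Among the higher ones were Cdc6 (0.8 ± 0.16), RPA2 (0.86 ± 0.19) and the CycE-Cdk2 inhibitor gene dap (0.64 ± 0.08), and among the lower ones stg (-0.72 ± 0.06), Rbf2 (-0.92 ± 0.11) and dnk (-0.65 ± 0.11).

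**Figure D5:**
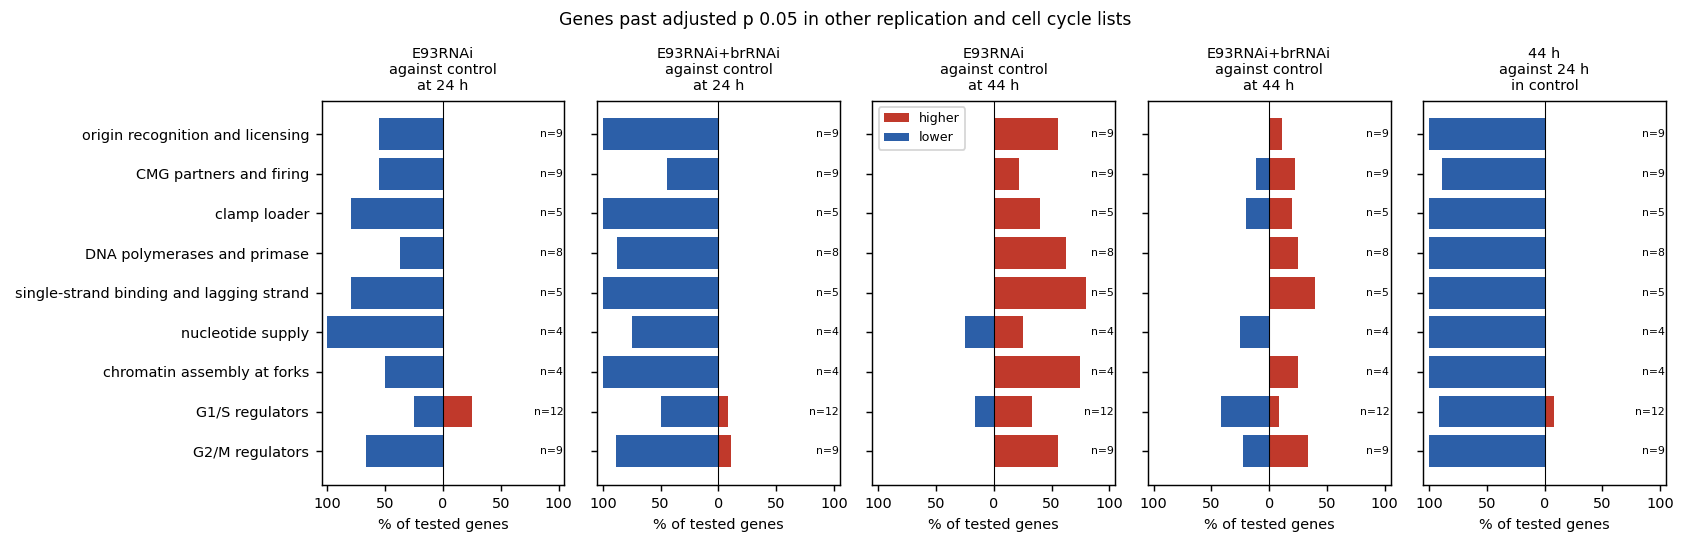
Percent of the tested genes of each list (rows, n at the right) that were higher (red) or lower (blue) at adjusted p 0.05 in 5 comparisons. In E93RNAi the called genes of 8 of the 9 lists were all lower at 24 h, with the G1/S list divided, and at 44 h 31 genes were higher and 3 lower.

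Set against E93RNAi, which also differed in Dcr-2, E93RNAi+brRNAi had 35 of the 65 genes lower, 4 higher and 26 not passing at 24 h (median -0.24). At 44 h 32 were lower, 3 higher and 30 did not pass (median -0.25). Of all genes 21.1% were lower at 24 h and 23.9% at 44 h. Mcm10 (-0.82 ± 0.08), Cdc6 (-0.75 ± 0.1) and Myc (-1.28 ± 0.11) were among the lower ones at 24 h, and the GINS gene Psf1 was higher (0.75 ± 0.11). At 44 h stg was at 147, 131 and 123 CPM against 327, 343 and 315 CPM (-1.3 ± 0.06, adjusted p = 2.91e-13), and Cdc6 (-1.13 ± 0.13) and PolA1 (-0.99 ± 0.11) were also lower. Cdc7, the kinase that fires licensed origins, was higher (0.52 ± 0.09).

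Genes with the most similar pattern were named by Pearson correlation of log2 CPM over the 18 libraries, as a description, since the libraries share times and genotypes and 11.7% of 7063 genes compared reached over 0.95 with the members' mean. The nearest were spd-2, a centrosome gene, Ssrp, of the FACT histone chaperone, feo, a cytokinesis gene, and SMC2, of condensin, all at 0.998, followed by Uba2, mars, Nup93-1 and gwl at 0.997. For CycE, 4.38% of 7072 genes were over 0.95, and the nearest were Rpn2 (0.987), msk (0.987), Delta (0.986), dally (0.985) and Cdc5 (0.985), of which Rpn2 is a proteasome gene, Delta a Notch ligand gene and dally a glypican gene. The dpa pattern was rare, with 0.156% of genes over 0.95. Its nearest genes, chosen after its values were seen, were the chaperonin genes CCT6 (0.975) and CCT2 (0.965), CG10444 (0.969), the kinetochore gene Kmn1 (0.966) and Rbf2 (0.965), and its correlation with the other members was 0.742 to 0.814.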

How the data were processed

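Poly(A) RNA of pupal wings was sequenced by the authors in 18 libraries, 3 per group, as strand-marked single reads of 51 bases, per the labels' protocols. The deposited counts are whole numbers of reads per gene without normalization. The deposited cRPKM values are an RPKM, counts divided by the library's total and by a gene length that was within 1 base of an annotated transcript less 49 bases for 92% of 5851 well covered genes. The submitters' processing notes name dm6. The aligner, the counting program and its strand setting were not given in the sources used here, so reads of overlapping genes on opposite strands may be mixed. Of 14489 listed genes, 13731 had values. Coordinates are those of BDGP6 in Ensembl release 115. Mcm3, br, Orc1, Top2, RPA2 and the wing blade genes ap and ds appear under former identifiers, accepted where the implied length was within 2 bases of a transcript. For br and Top2, 2 of the 213 unmatched genes with counts had a fitting length, so their match is less sure.

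Differences were tested in R 4.3.3 by the quasi-likelihood method of edgeR 4.0.16 after TMM scaling and filterByExpr. The 18 libraries shared 1 model with a mean for each group, and p-values were adjusted by Benjamini-Hochberg over 9672 genes, called at 0.05. Adjusted p-values and 95% intervals come from this fit unless another setting is named. Its common biological coefficient of variation was 5.99%, and intervals include the spread between libraries. The script was tested on simulated counts. CPM are TMM-scaled, with SD over 3 libraries. Alternatives were DESeq2 1.42.0, limma 3.58.1 on log2(cRPKM + 1), other scalings, no filter, a replicate block, fits of the compared libraries only, and leaving out each library. Same-numbered libraries did not deviate together.

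Named were all 10 members in every comparison, up to 3 genes per list and comparison by smallest adjusted p, label checks, and the 8 (for CycE and dpa, 5) genes of most similar pattern with a mean of at least 5 CPM. The members and lists were chosen with earlier results of these data known. Comparisons share control libraries, so their values are given side by side.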

Additional observations from a re-analysis of the deposited data

Results flagged for a closer look

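Results are listed here because the change from 24 h to 44 h differed between genotypes by an interaction term (edgeR's quasi-likelihood test, Benjamini-Hochberg adjustment). Positive values mean a smaller fall in the genotype named first. For E93RNAi against control the interactions on the log2 scale were 1.19 for Mcm2, 1.15 for Mcm3, -0.82 for dpa, 2.35 for Mcm5, 0.6 for Mcm6, 2.03 for Mcm7, 2.64 for PCNA, 1.37 for RnrL and 1.57 for RnrS, with adjusted p-values from 7.61e-10 to 0.000375. For E93RNAi+brRNAi against control they were 0.94 for Mcm2, 0.94 for Mcm3, 2.3 for Mcm5, 0.57 for Mcm6, 1.53 for Mcm7, 2.3 for PCNA, 2.16 for RnrL and 1.06 for RnrS, with adjusted p-values from 5.69e-10 to 0.000918. For E93RNAi+brRNAi against E93RNAi they were 0.97 for dpa, -0.5 for Mcm7, 0.79 for RnrL, -0.51 for RnrS and 0.51 for CycE, with adjusted p-values from 2.06e-08 to 0.0184. Groups of 3 libraries are too small for a test of single outlying libraries.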

How the results depend on the processing

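Over 1860 alternatives to the 120 log2 fold changes of the members, 1810 kept direction and call, 25 lost the call, 25 gained it and none reversed a called direction; 16 results were affected. Leaving out single libraries, the number of members called stayed at 9 for E93RNAi against control at 44 h and at 10 for E93RNAi+brRNAi against control at 24 h and for the change with time in each genotype. It ranged from 7 to 9 for E93RNAi against control at 24 h, 5 to 6 for E93RNAi+brRNAi against control at 44 h, and 8 to 9 (24 h) and 6 to 8 (44 h) for E93RNAi+brRNAi against E93RNAi. For the interactions it ranged from 9 to 10, 8 to 9 and 4 to 5. With library totals only, 8 members in place of 5 were called in the interaction of E93RNAi+brRNAi against E93RNAi, and the median of all genes was as low as -0.27 (44 h against 24 h in E93RNAi+brRNAi). The Mcm2 call at 24 h (E93RNAi against control) was lost with DESeq2 (adjusted p = 0.0505) and, like that of RnrL, with limma. RnrL at 44 h between the RNAi genotypes was 0.27 with upper quartile scaling and 0.12 with library totals, neither called. The sum over the 10 genes per length moved from 593 to 555 in control and 454 to 418 in E93RNAi at 24 h, and from 38 to 41.1 in control and 40 to 45.6 in E93RNAi+brRNAi at 44 h, when TMM-scaled counts per kilobase replaced cRPKM. The replicate numbers did not pair the libraries (mean correlation of deviations -0.02, highest 0.09 over 45 pairs), and the replicate block changed 1 call, PCNA between the RNAi genotypes at 44 h (-0.37, adjusted p = 0.0173). Depth limits Mcm5, PCNA and Orc2 at 44 h in control, where counts per library were few. The causes of these changes were not tested.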
